A study of Mus musculus with 6 samples.

Results

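Glycolysis breaks glucose down to pyruvate and lactate, and many of its enzymes are switched on by hypoxia-inducible factors (HIFs) when oxygen falls. The expression of 37 genes of glycolysis and of the hypoxia response was compared in mouse lung between rhTM-treated and saline-treated mice with endotoxaemia. The genes were chosen by name and were placed in 7 roles, which run from glucose entry to HIF subunits and their targets. All 37 were among the 16370 genes measured above background, and all 37 were well above background on each of the 6 arrays. All mice were C57BL6 males, 10 weeks old, that went without food for 16 h before LPS was given into the abdomen at 20 mg/kg. LPS is the endotoxin of Gram-negative bacteria. The mice were then injected with saline (3 mice) or rhTM (3 mice) 3 h and 24 h after LPS, and whole lung was taken at 30 h. rhTM is recombinant human thrombomodulin, the soluble form of an anticoagulant protein of the endothelial surface. Every mouse on the arrays had been starved and given LPS, so the differences below are between treatments and not between inflamed and healthy lung.

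HIF is a pair of proteins, an oxygen-regulated α-subunit (HIF-1α from Hif1a, HIF-2α from Epas1) and a constant partner (from Arnt). With oxygen present, prolyl hydroxylases such as those from Egln1 and Egln3 mark the α-subunit for destruction, so HIF activity is set largely at the protein level, which an array of RNA does not measure. Stabilised HIF binds short DNA elements with the core letters ACGTG or GCGTG near its target genes. In lung, Epas1 is known as an endothelial and epithelial gene, while Hif1a and glycolysis are known for their part in the activation of neutrophils and macrophages.

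One array held the RNA of each mouse. Values are log2 signals relative to the 75th percentile of the array, so that 0 is a probe at that percentile, and they can be compared between arrays for 1 gene but not between genes. The alveolar type 2 markers (8 of 8) and endothelial markers (10 of 10) were measured. Skeletal and cardiac muscle markers (8 of 8) were measured too, so being measured does not by itself identify the tissue. The array of rhTM replicate 1 stood apart from the rest. Its median absolute deviation from the gene means was 0.203 log2 units over all genes, against 0.096 to 0.147 on the other 5 arrays. Over the 37 genes alone it was 0.154, below the 0.177 of saline replicate 2 and above the 0.071 to 0.102 of the other 4 arrays. Saline replicate 1 had a spike-in slope of 0.826, outside the range of the scanner software, against 1.07 to 1.09 on the others. The authors' table of processed values disagrees with the scanner files on 2 arrays. What one calls saline replicate 1 the other calls rhTM replicate 2, in both directions, and the labels do not settle which is right. The scanner assignment is used here, and the table's difference is given for each gene whose sign, or overlap of the groups, was not the same by both sources. Arrays 2 and 3 of the saline group and arrays 1 and 2 of the rhTM group shared slide 1, and the remaining pair shared slide 2.

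The core letters of the elements that HIF can read were looked for in the promoters of the genes, as a description of sequence and not of binding. Promoter sequences (RefSeq, assembly GRCm38.p6) were listed for 35 of the 37 genes. They were searched on both strands over the 250 bases before each listed start. ACGTG was found for 19 of these 35 genes (54.3%), against 18.5% of 27025 genes with a listed promoter. GCGTG was found for 23 of 35 (65.7%), against 30.9%. The longer form TACGTG was found for 6 (17.1%), against 3.12%, namely Ankrd37, Car9, Egln1, P4ha1, P4ha2 and Pgam1. Of the 13 genes whose values are given on every array, 11 had a promoter entry and 6 of them held ACGTG. A stretch of 1 promoter of each of these 6 genes is shown, since their values are followed below, and other starts and the GCGTG matches are not shown. The stretches are printed 5′ to 3′ on the strand of the gene, with ACGTG and its reverse complement CACGT in capitals. Where both overlap as CACGTG they count as 1 site.
Slc2a1, chr4:119108682-119108740, plus strand, 1 site: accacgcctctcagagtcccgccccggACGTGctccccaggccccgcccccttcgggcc
Hk2, chr6:82774502-82774680, minus strand, 2 sites: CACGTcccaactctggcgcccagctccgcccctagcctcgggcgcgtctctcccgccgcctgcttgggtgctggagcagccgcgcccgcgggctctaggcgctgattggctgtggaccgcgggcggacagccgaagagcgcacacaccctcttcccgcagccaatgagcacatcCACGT
Pfkfb3, chr2:11553958-11554016, minus strand, 1 site: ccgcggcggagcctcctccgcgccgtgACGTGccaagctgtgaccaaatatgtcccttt
Ldha, chr7:46845659-46845774, plus strand, 3 sites: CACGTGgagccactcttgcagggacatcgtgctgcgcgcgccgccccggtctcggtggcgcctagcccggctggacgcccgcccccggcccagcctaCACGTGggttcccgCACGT
Hif1a, chr12:73907732-73907801, plus strand, 2 sites: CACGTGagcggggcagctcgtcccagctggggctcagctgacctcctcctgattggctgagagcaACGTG
Egln3, chr12:54204072-54204124, minus strand, 1 site: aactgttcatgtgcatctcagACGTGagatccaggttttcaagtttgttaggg

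The median log2 difference between rhTM and saline was 0.00 over the 19 genes with the letters, of which 10 had a higher mean with rhTM, and −0.07 over the 16 without, of which 6 were higher. For GCGTG the medians were −0.03 over the 23 genes with it (10 higher) and −0.02 over the 12 without it (6 higher). For TACGTG they were −0.02 over the 6 genes with it (2 higher) and −0.04 over the 29 without it (14 higher). These counts describe letters in a window and not bound sites. Of the 5 genes with a log2 difference of at least 0.3, Slc2a1, Hk2 and Hif1a held ACGTG, Higd1a held GCGTG but not ACGTG, and Ndrg1 was one of the genes with no promoter entry. Egln3, whose mean was lower with rhTM, also held ACGTG.

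Over the whole pathway the 2 groups differed little. No gene of the 37 passed limma's test with Benjamini-Hochberg adjustment at 0.05 (adjusted p = 0.9998 for each), and the share called among all genes tested was 0%. By unadjusted p under 0.05 in limma, 1 of the 37 was higher with rhTM (0.69% of all genes) and 0 were lower (1.15%). The mean was higher with rhTM for 17 genes and lower for 20, and the median log2 difference was −0.024, against 0.0007 over all genes. The median size of the difference, whatever its sign, was 0.107 log2 units for the 37 genes and 0.113 for all genes. Single differences ran from −0.29 to 0.53. For 23 of the 37 genes the 95% interval of the difference lay within 1.5-fold either way (59.4% of all genes), and for 36 it lay within 2-fold either way (88.2%). The exception was Ndrg1. These intervals are per gene, and the number of arrays limits their precision. In whole lung, fewer cells of a type and less RNA per cell cannot be told apart.

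**Figure D1:**
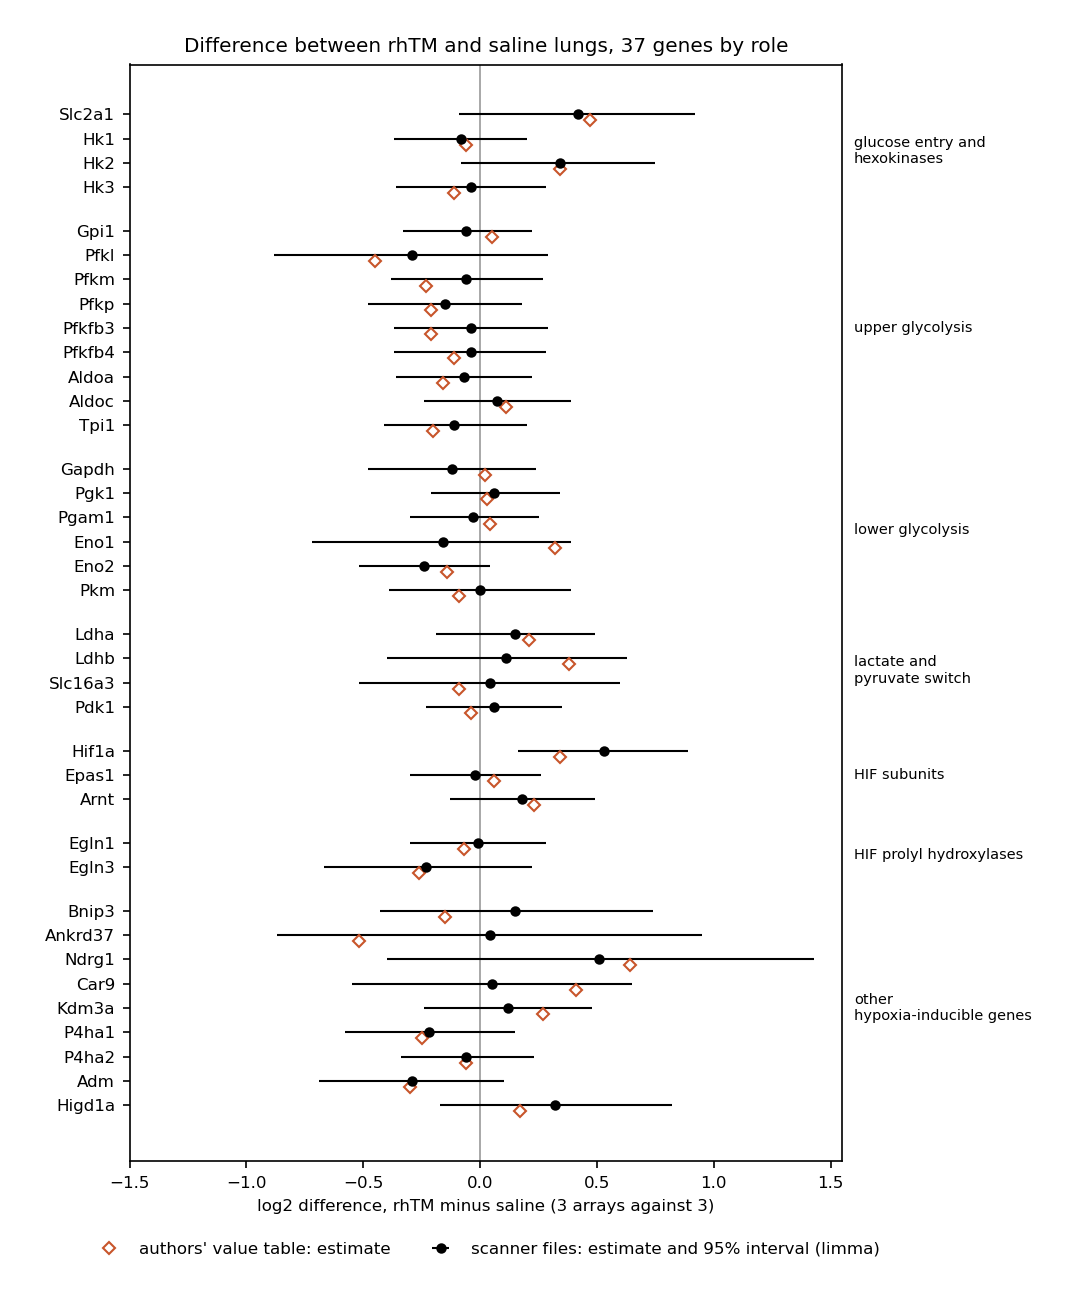
The x axis is the log2 difference of the group means (rhTM minus saline, 3 arrays against 3) for each of the 37 genes, grouped by role. Black points and bars are the estimates and 95% intervals of limma from the scanner files, and open diamonds are the estimates from the authors' table. The interval of Hif1a is the only one that leaves out 0, and those of Ndrg1 and Ankrd37 are the widest.

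A log2 difference of at least 0.3 was seen in 5 genes, all higher with rhTM, namely Slc2a1, Hk2, Hif1a, Ndrg1 and Higd1a. The share of all genes at least 0.3 higher was 5.68%, and the share at least 0.3 lower, where the 37 genes had 0, was 7.61%. The groups did not overlap for 1 gene that was higher (Hif1a, 2.9% of all genes) and 1 that was lower (Eno2, 2.61%). By the authors' table, no gene of the 37 and 0% of all genes passed, but groups separated more often. By that assignment all saline arrays and rhTM replicate 1 were on slide 1, and rhTM replicates 2 and 3 were alone on slide 2. Differences between groups in the table therefore cannot be fully told apart from differences between slides. In the table, 5 of the 37 were higher without overlap (Slc2a1, Hk2, Arnt, Ndrg1 and Kdm3a, against 8.56% of all genes) and 6 were lower without overlap (Pfkl, Pfkm, Pfkfb3, Aldoa, Tpi1 and P4ha1, against 13.3%). Unadjusted p under 0.05 in limma was then reached by 3 higher genes (6.33% of all genes) and 1 lower gene (7.94%). The sign of the difference was the same by both sources for 27 of the 37. With the slide as a block in that table, 2 of the 37 passed (Pfkl and Ndrg1, against 2.71% of all genes), in a fit where rhTM replicate 1 alone is set against the saline arrays. Without both exchanged arrays, again 0 of the 37 and 0% of all genes passed, and with 2 arrays a group 8 genes were higher and 9 lower without overlap, against 18.9% and 22.4% of all genes.

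Hif1a, the gene of the HIF-1α subunit, had the largest difference by the scanner files, close to that of Ndrg1 (0.51). By the authors' table Ndrg1, Ankrd37, Slc2a1, Pfkl, Car9 and Ldhb all differed by more than Hif1a, and without the exchanged arrays Ndrg1 (0.87) and Slc2a1 (0.67) did. The saline arrays 1, 2 and 3 read 3.74, 3.82 and 3.69, and the rhTM arrays read 4.49, 4.0 and 4.33. The lowest rhTM array was above the highest saline array, and the rhTM arrays were spread more widely. The mean was 3.75 ± 0.06 (SD, n = 3) with saline and 4.27 ± 0.25 (SD, n = 3) with rhTM, a 1.44-fold difference with a 95% interval of 1.11 to 1.86. On the log2 scale the difference was 0.53 ± 0.16 (SE). limma gave p = 0.0123 before adjustment and 0.9998 after it, and the exact two-sided permutation test gave p = 0.1, the smallest that 3 arrays against 3 allow. The difference was 0.49 within slide 1 and 0.59 within slide 2, and 0.41 without rhTM replicate 1. By the authors' table it was 0.34 and the groups overlapped, since the array read at 4.0 is there a saline array and the array at 3.74 an rhTM array. Without both of these arrays the difference was 0.66 (limma, adjusted p = 0.666).

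The other HIF subunits had smaller differences. Epas1, the gene of HIF-2α, read 7.71, 7.50 and 7.55 with saline and 7.50, 7.58 and 7.61 with rhTM. The groups overlapped almost wholly, and the log2 difference of −0.02 had a 95% interval of −0.30 to 0.26 (0.06 in the table). Arnt, the common partner, differed by 0.18 (95% interval −0.13 to 0.49) with overlap, and its 2 probes gave 0.18 and 0.23. By the authors' table Arnt was higher without overlap at 0.23 (limma, adjusted p = 0.368). The prolyl hydroxylase genes had means at or below those of saline. Egln1, the main oxygen sensor among them, differed by −0.01 (95% interval −0.30 to 0.28). Egln3, itself a HIF target, read −3.26, −2.93 and −3.31 with saline and −3.24, −3.22 and −3.72 with rhTM. One rhTM array was the lowest of all and the other 2 lay among the saline arrays, and the log2 difference was −0.23 (95% interval −0.67 to 0.22). It was −0.06 without rhTM replicate 3 and −0.11 without saline replicate 2.

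**Figure D2:**
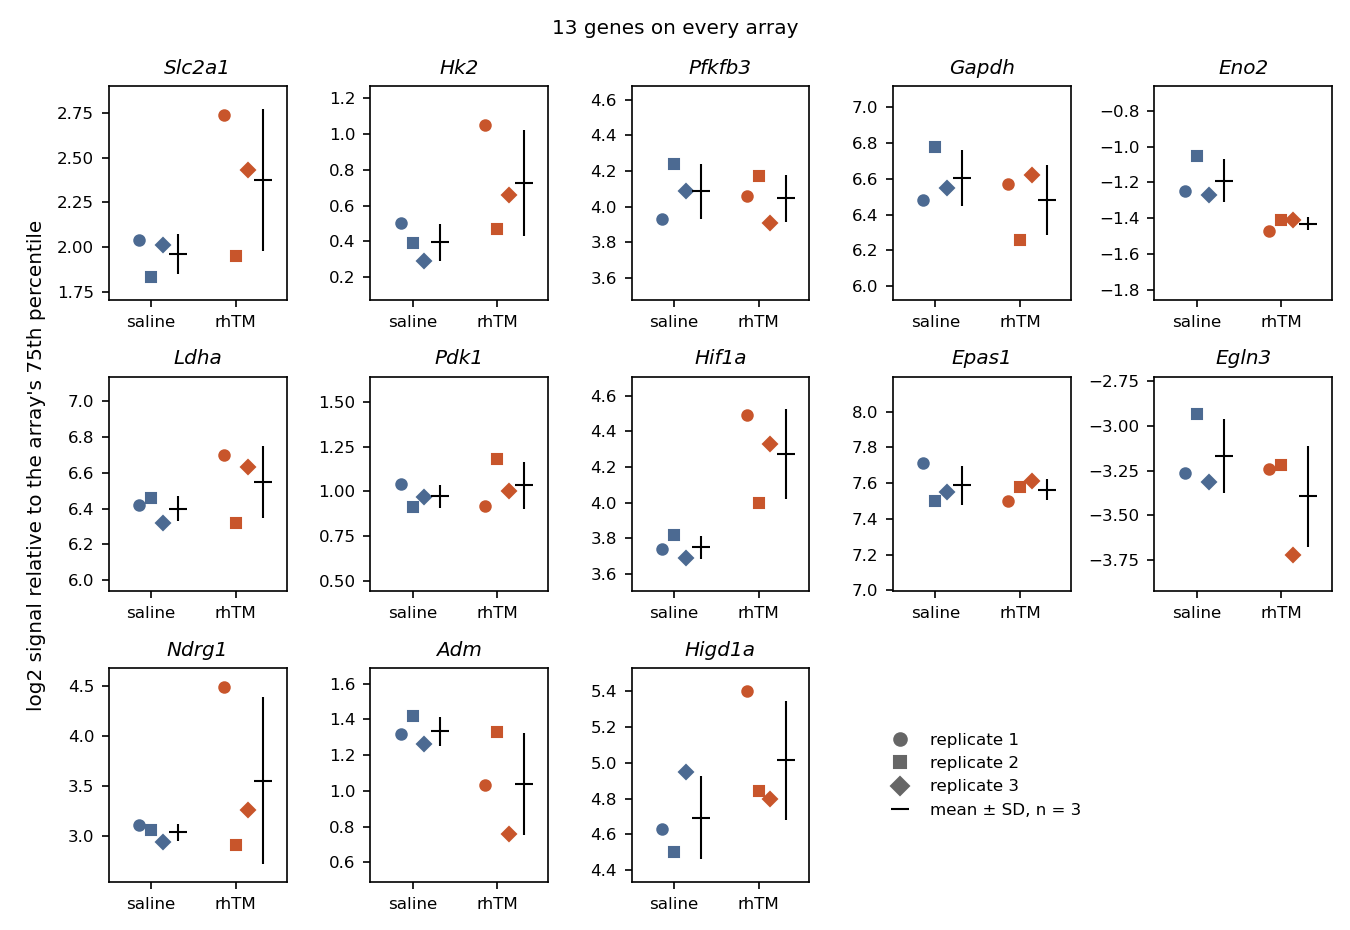
Each panel gives 1 gene, with its log2 signal relative to the array's 75th percentile on the y axis and the group on the x axis. Symbols mark replicates 1 to 3 and the black bars the mean ± SD (n = 3). The groups do not overlap for Hif1a and Eno2, and rhTM replicate 1 is the highest array for Slc2a1, Hk2, Ldha, Hif1a, Ndrg1 and Higd1a.

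Of the genes that bring glucose into the cell and trap it, Slc2a1 and Hk2 had higher means with rhTM and Hk1 and Hk3 did not. Slc2a1 encodes GLUT1, the glucose transporter induced by HIF-1. It read 2.04, 1.83 and 2.01 with saline and 2.74, 1.95 and 2.43 with rhTM. Of the rhTM arrays, 2 lay above all saline arrays and 1 among them. The log2 difference was 0.42 ± 0.21 (SE; 95% interval −0.09 to 0.92). Before adjustment limma gave p = 0.0922, and the exact permutation test gave p = 0.3. Hk2, the inducible hexokinase, read 0.50, 0.39 and 0.29 with saline and 1.05, 0.47 and 0.66 with rhTM, again with 2 rhTM arrays above and 1 among the saline arrays. Its difference was 0.34 ± 0.17 (SE; 95% interval −0.08 to 0.75; limma, unadjusted p = 0.0959; exact permutation p = 0.2). In both genes the rhTM array among the saline arrays was replicate 2, so by the authors' table the groups did not overlap, with differences of 0.47 (limma, adjusted p = 0.343) and 0.34 (adjusted p = 0.385). Without rhTM replicate 1 the differences were 0.23 and 0.17. Hk1, the hexokinase of most resting cells, differed by −0.08 (95% interval −0.37 to 0.20), and Hk3, a hexokinase of myeloid cells, by −0.04 (−0.36 to 0.28).

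Upper glycolysis, from glucose 6-phosphate to the triose phosphates, had lower means in 8 of its 9 genes, none of which passed. The median log2 difference of the role was −0.06 by the scanner files and −0.20 in the table. Pfkfb3 makes the fructose 2,6-bisphosphate that drives phosphofructokinase. It read 3.93, 4.24 and 4.09 with saline and 4.06, 4.17 and 3.91 with rhTM. The groups overlapped, with rhTM replicate 3 the lowest array by a small margin, and the difference was −0.04 (95% interval −0.37 to 0.29; −0.21 in the table). A second probe of Pfkfb3 gave 0.29. Of the phosphofructokinases, Pfkl (liver type) differed by −0.29, Pfkp (platelet type) by −0.15 and Pfkm (muscle type) by −0.06. In the table Pfkl was at −0.45 and Pfkm at −0.23. Pfkl rested on rhTM replicate 1, at −0.55 against 0.02 to 0.49 on the other 5 arrays, and without that array the difference was −0.04. Gpi1 and Pfkfb4 differed by −0.06 (0.05 in the table) and −0.04. Aldoa, the aldolase of most tissues, differed by −0.07 (−0.16 in the table), Tpi1, the triosephosphate isomerase, by −0.11 (−0.20 in the table), and Aldoc by 0.07, with −0.21 by a second probe.

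Lower glycolysis, from the triose phosphates to pyruvate, had a median difference of −0.07 over 6 genes (0.03 by the authors' table). Gapdh, the dehydrogenase that is also the loading control of the study's PCR, read 6.48, 6.78 and 6.55 with saline and 6.57, 6.26 and 6.62 with rhTM. Replicate 2 of rhTM was the lowest, and the other 5 arrays lay between 6.48 and 6.78. The log2 difference was −0.12 (95% interval −0.48 to 0.24), its 6 probes ran from −0.22 to −0.03, and by the authors' table it was 0.02. With 1 array left out the difference ran from −0.19 (without rhTM replicate 3) to −0.01 (without rhTM replicate 2). Gapdh spanned 0.51 log2 units over the 6 arrays, and 46.7% of all genes spanned less. Of 12 other common loading controls, 9 spanned less than Gapdh, with a median span of 0.36. Their differences between the groups ran from −0.13 (Gusb) to 0.10 (Tbp).

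**Figure D3:**
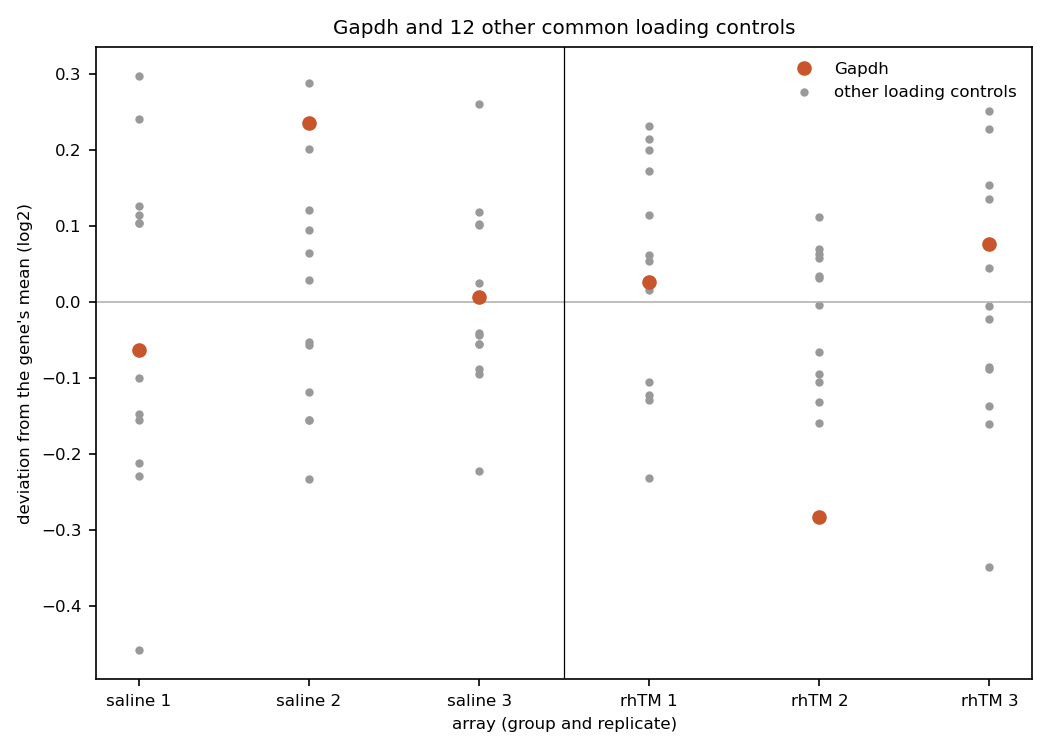
The y axis is the deviation of a gene from its own mean over 6 arrays, in log2 units, and the x axis gives the arrays. Orange points are Gapdh and grey points 12 other common loading controls, scaled by the 75th percentile of each array. Gapdh is lowest on rhTM replicate 2 and highest on saline replicate 2, a span of 0.51.

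Eno2, the neuronal enolase, was lower with rhTM without overlap. It read −1.25, −1.05 and −1.27 with saline and −1.47, −1.41 and −1.41 with rhTM, and the rhTM arrays were close together. The difference was −0.24 ± 0.12 (SE; 0.848-fold, 95% interval on the log2 scale −0.52 to 0.04), with an exact permutation p = 0.1 and an unadjusted limma p = 0.0867. The groups overlapped by the authors' table, at −0.14. The main enolase Eno1 differed by −0.16 by the scanner files and 0.32 by the authors' table. Eno1 was at 0.01 without saline replicate 1 and −0.35 without rhTM replicate 3. Its 2 arrays of slide 2, 6.39 and 6.27, lay above the 4 arrays of slide 1, at 5.64 to 6.02, and its within-slide differences were −0.18 and −0.12. Pgk1 (0.06), Pgam1 (−0.03) and Pkm (0.00) had near equal means, and in the table Pgam1 was at 0.04 and Pkm at −0.09. A second probe of Pkm gave −0.32. Pgk1, a classic HIF target, had the smallest within-group spread of the 37 genes, with an SD of 0.073 log2 units, and its 95% interval ran from −0.21 to 0.34.

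The 4 genes of the step between pyruvate and lactate and of its control had a median log2 difference of 0.09, with a higher mean with rhTM in each. Without rhTM replicate 1 the differences were 0.07 for Ldha, −0.05 for Ldhb, −0.19 for Slc16a3 and 0.12 for Pdk1. Slc16a3 also turned without saline replicate 1 (−0.10), and Pdk1 without rhTM replicate 2 (−0.01). Ldha, the lactate dehydrogenase subunit that favours lactate, read 6.42, 6.46 and 6.32 with saline and 6.70, 6.32 and 6.63 with rhTM. Replicates 1 and 3 of rhTM lay above all saline arrays, and replicate 2 equalled the lowest of them. The difference was 0.15 (95% interval −0.19 to 0.49), and a second probe gave −0.03. Ldhb differed by 0.11 (0.38 by the authors' table, −0.02 by a second probe), and Slc16a3, the lactate exporter MCT4, by 0.04 (−0.09 by the authors' table). Pdk1, a kinase that restrains the oxidation of pyruvate in mitochondria, read 1.04, 0.91 and 0.97 with saline and 0.92, 1.18 and 1.00 with rhTM. The groups overlapped, at 0.06 (95% interval −0.23 to 0.35; −0.04 in the table), and the 4 probes of Pdk1 ran from −0.81 to 0.06. In the values of the authors, 2 of the 4 genes were higher, with a median of 0.08.

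The other hypoxia-inducible genes went both ways, 6 of 9 with a higher mean and 3 with a lower one, and the median log2 difference was 0.05 (−0.06 by the authors' table). Ndrg1, a stress-induced gene of the N-myc downstream regulated family, read 3.11, 3.06 and 2.94 with saline and 4.49, 2.91 and 3.26 with rhTM. One rhTM array was far above all others and another was the lowest of the 6. The difference was 0.51 ± 0.38 (SE; 95% interval −0.40 to 1.43; 0.64 in the table), and without rhTM replicate 1 it was 0.05. The within-group SD of Ndrg1 was 0.589, beside 0.59 for Ankrd37, the 2 largest of the 37 genes. Higd1a, a mitochondrial protein of the hypoxia response, read 4.63, 4.50 and 4.95 with saline and 5.40, 4.84 and 4.80 with rhTM. Again replicate 1 of rhTM was the highest and the other 2 lay within the saline range. The difference was 0.32 (95% interval −0.17 to 0.82), and 0.13 without that array. Adm, the vasodilator peptide adrenomedullin, read 1.32, 1.42 and 1.26 with saline and 1.03, 1.33 and 0.76 with rhTM. Of the rhTM arrays, 2 lay below all saline arrays and 1 among them. The difference was −0.29 (95% interval −0.69 to 0.10), −0.30 by the authors' table and −0.15 without rhTM replicate 3.

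Of the remaining targets, Bnip3, a mitophagy receptor, differed by 0.15 (−0.15 by the authors' table) and Kdm3a, a histone demethylase, by 0.12 (0.27 in the table). Bnip3 was at −0.02 without rhTM replicate 1 and 0.37 without rhTM replicate 3. The collagen prolyl hydroxylases P4ha1 and P4ha2 differed by −0.22 (−0.25 in the table) and −0.06. Car9, the cell-surface carbonic anhydrase, differed by 0.05 (0.41 by the authors' table, −0.14 by a second probe). Ankrd37 had near equal means, with a difference of 0.04 (−0.52 by the authors' table), but spanned 1.63 log2 units over the 6 arrays, the widest of the 37 genes. It was lowest on rhTM replicate 1, at −0.58, and highest on rhTM replicate 2, at 1.05. Without rhTM replicate 1 its difference was 0.47. Ankrd37 and Ndrg1, both HIF targets, thus stood at opposite extremes on the array of rhTM replicate 1.

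**Figure D4:**
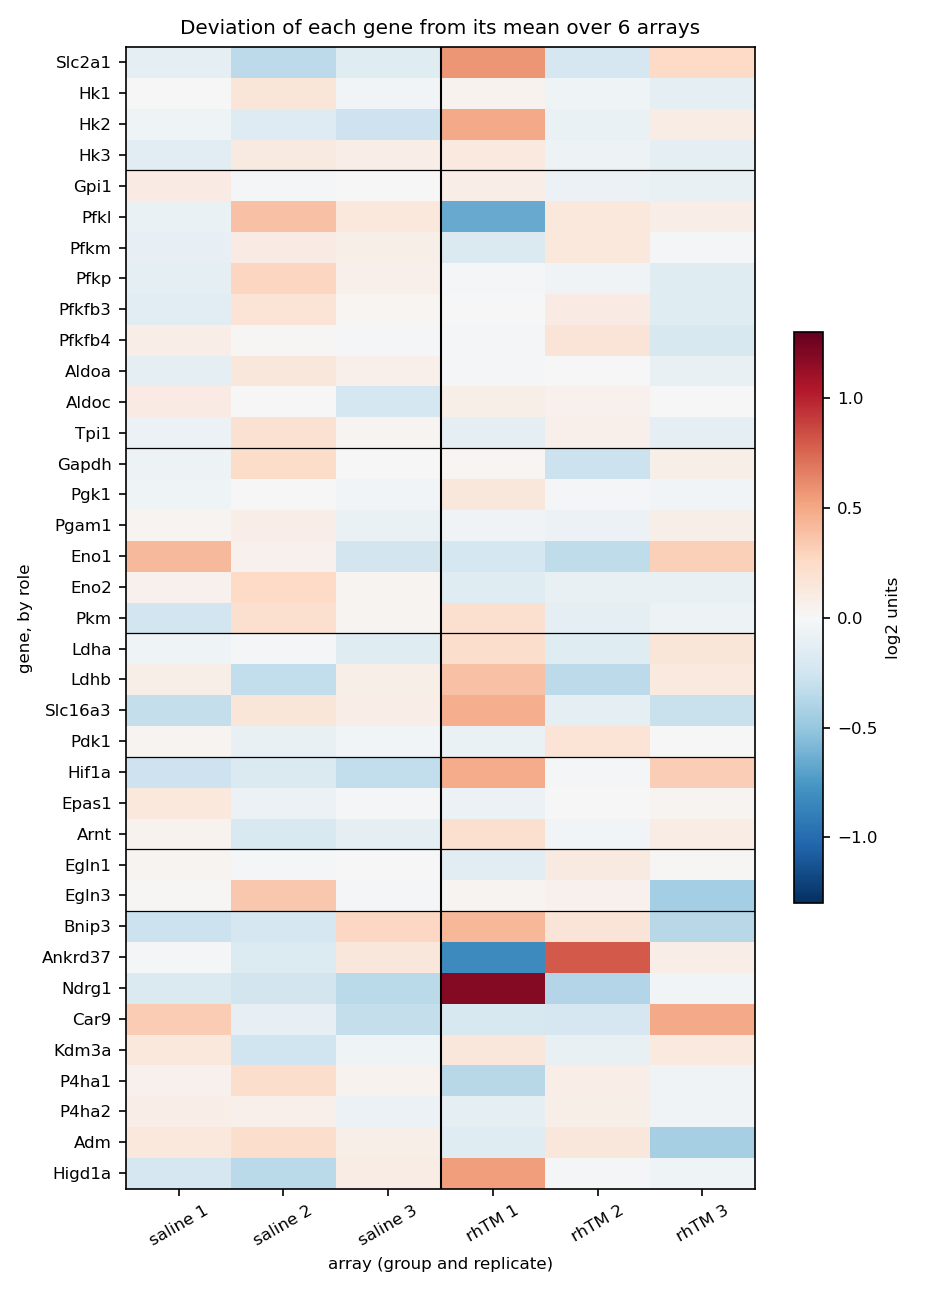
Each row is 1 of the 37 genes, in order of role, and each column 1 array. Colour gives the deviation from the gene's mean over 6 arrays in log2 units, red above and blue below. The strongest colours lie in the column of rhTM replicate 1, in both directions, as for Ndrg1 (red) and Ankrd37 (blue).

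The spread between mice was smaller for these genes than for genes in general. The median within-group SD was 0.152 log2 units for the 37 genes and 0.208 for all genes. It was wider among rhTM arrays (median 0.174) than among saline arrays (0.126), with 24 of the 37 genes more variable with rhTM (66.2% of all genes). On rhTM replicate 1, 13 of the 37 genes had their highest value and 9 their lowest, 59.5% in all (56.2% of all genes). Saline replicate 2 also had the highest value of 13 genes, and the lowest of 5. Cell markers also differed on rhTM replicate 1. The 6 measured erythroid markers of 8 had a median deviation of 0.85 on it, against −0.26 to 0.01 on the other 5 arrays. Their summed level, in multiples of the 75th percentile, was 627 to 807 with saline and 623 to 925 with rhTM. Of the 11 measured neutrophil markers of 12, 10 were highest on rhTM replicate 1, and their summed level was 987 to 1153 with saline and 1018 to 1318 with rhTM. Alveolar type 2 markers had a median deviation of −0.31 on rhTM replicate 1, against −0.16 to 0.16 on the other arrays. On it 6 of the 8 were at their lowest and 1 at its highest. Endothelial markers were at −0.30, with 5 of 10 at their lowest and 3 at their highest, against −0.20 to 0.32. Macrophage and monocyte markers were at −0.15 on both rhTM replicate 1 and rhTM replicate 3. Alveolar type 1 markers had a median deviation of 0.04 on rhTM replicate 1, with 2 of 5 at their highest and 2 at their lowest. Airway markers had a median deviation of 0.07 there, with 1 of 4 at its highest and 0 at their lowest. Skeletal and cardiac muscle markers had lower means with rhTM in 7 of 8 genes, with a median log2 difference of −0.39 (0.00 by the authors' table). Their median deviation was −0.32, −0.26 and −0.20 on the rhTM arrays and 0.30, −0.32 and 0.38 on the saline arrays. Their summed level was 29.3 to 32.4 with rhTM and 25.4 to 51.9 with saline, and their part in the values of Pfkm and Pgam2 was not tested. The part of these cells in the values of Slc2a1, Hk2, Hif1a, Ndrg1 and Higd1a was not tested.

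Of 23 other glycolysis genes measured, 0 passed in either direction, 16 had higher means, and the median log2 difference was 0.10 (−0.04 by the authors' table). They ran from −0.33 for Pgam2, the muscle mutase, to 0.25 for Hkdc1, a hexokinase-like gene, and 12 of the 23 were highest on rhTM replicate 1. Of 28 other HIF pathway and hypoxia genes, 0 passed in either direction, 16 had higher means and the median was 0.03 (−0.08 by the authors' table). They ran from −0.25 for Tfrc, the transferrin receptor, to 0.54 for Ddit4, an inhibitor of mTOR. Ddit4 read 6.09 on rhTM replicate 1 against 4.55 to 5.21 on the other arrays, and without replicate 1 its difference was 0.16. None of 20 genes of the tricarboxylic acid cycle or 7 of the pentose phosphate pathway passed, with 9 and 2 higher means.

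**Figure D5:**
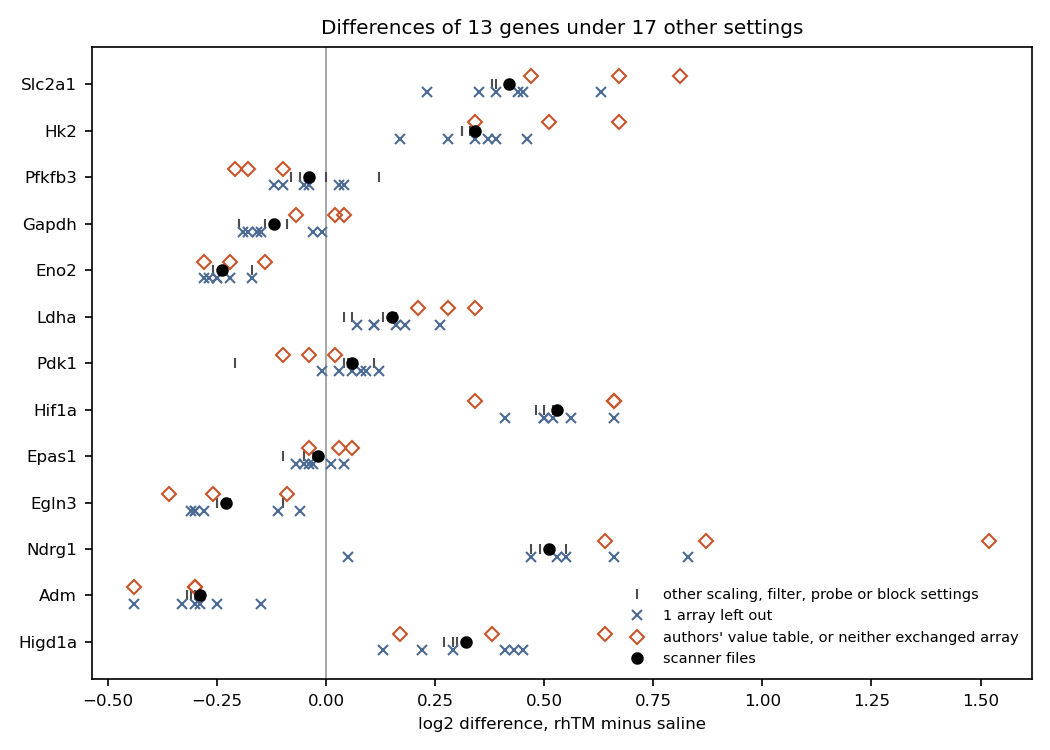
The x axis is the log2 difference (rhTM minus saline) of each of 13 genes, and every mark is 1 way of computing it. Black circles are the scanner files, crosses leave out 1 array, open diamonds take the authors' table or leave out both exchanged arrays, and ticks are other scaling, filter, probe or block settings. All marks of Hif1a lie between 0.34 and 0.66, while those of Ndrg1 run from 0.05 to 1.52.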

How the data were processed

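Each lung RNA was measured on 1 Agilent SurePrint G3 Mouse array in 1 colour. The scanner output was deposited by the authors as a linear intensity corrected for background within the array by Feature Extraction (10.7.3.1 in the file headers, 9.1 in the submitters' processing notes). They also deposited a table of the same intensity values. More than 99.9% of the table's values matched a scanner file within 0.1%, with 2 columns exchanged. RNA extraction is given as an RNeasy kit in the labels and a simplyRNA kit in the methods. The control injection is saline in the labels and PBS in the general methods.

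Control spots and outlier-flagged spots were left out, spots of a probe averaged, and the 75th percentile of log2 values subtracted per array. Probe accessions were matched to RefSeq gene names (32994 of 56605 probes). Probes well above background on all 3 arrays of a group were kept, and per gene the probe with the highest mean signal was used. Groups were compared with limma 3.58.1 in R 4.3.3 over 16370 genes (16320 by the table), with Benjamini-Hochberg adjustment. The fit was tested on simulated data. The 37 genes, the lists and the tests were chosen with earlier results of these data known. Values on every array were given for 10 preset genes and for any of the 37 with no overlap of groups, an unadjusted p under 0.05 or a log2 difference of at least 0.3. Alternatives were normexp with an offset of 50 on median spot signals, quantile and another percentile scaling, the table with and without the slide as a block, no exchanged arrays, 2 other filters, slide and replicate blocks, the mean of probes, each array left out, and the methods' t-test. Leaving arrays out of the table and values within each slide were added after the data were seen.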

Additional observations from a re-analysis of the deposited data

How the results depend on the processing

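No gene of the 37, and 0 genes in all, passed limma's test by the scanner files, where 302 of all genes and 1 of the 37 had an unadjusted p under 0.05. Both counts were also 0 with normexp, quantile scaling, the other percentile, both other filters, the slide block, the mean of probes, each array left out, no exchanged arrays and the methods' t-test (335 of all genes and 2 of the 37 at an unadjusted p under 0.05). At the fold and p thresholds of the methods (at least 2 or at most 0.5, and p under 0.01), without adjustment, 8 genes were called by limma, 1 by the t-test and 65 by limma on the authors' values, with 0 of the 37 each. In the authors' table, 0 genes passed and 2328 had an unadjusted p under 0.05. With the slide as a block in the table, 442 genes passed (2.71% of all), with 2 of the 37, Pfkl (−0.88, limma adjusted p = 0.0489) and Ndrg1 (1.52, adjusted p = 0.0278). Both rhTM arrays of slide 2 have no saline array beside them in the table, so this fit sets rhTM replicate 1 alone against 3 saline arrays. Leaving 1 array out of the table gave 0 to 595 passing genes and 0 to 1 of the 37. The call was Car9 (0.61, limma adjusted p = 0.0457, 3.65% of all genes passing) without rhTM replicate 1, where slide and group cannot be told apart.

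The median difference of the 37 genes was −0.064 with quantile scaling and −0.061 by the table, where the median of all genes was −0.042, and −0.028 to 0.005 with 1 array left out. The other filters and the slide and replicate blocks gave the same differences as the scanner files for all 13 genes. These unchanged values are counted in the 207 below and do not test the sign. Of 221 recomputed differences of the 13 genes, 207 kept direction and side of the threshold and 13 turned sign, in 4 genes. Gapdh was 0.02 by the table and 0.04 with its slide block. Pdk1 was −0.04, −0.10 and, by the mean of its probes, −0.21, and −0.01 to 0.12 with 1 array left out. Epas1 was 0.06 by the table, 0.03 without the exchanged arrays and −0.07 to 0.04 with 1 array left out. Pfkfb3 was 0.12 by the mean of probes and −0.12 to 0.04 with 1 array left out. The cause was not tested. Deviations of same-numbered arrays from their group means correlated at −0.3, 0.439 and −0.447. With 3 arrays a group and slides shared between groups, these values cannot decide whether the numbers pair the mice. With the replicate block 0 genes passed and the median was −0.024.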
